A study of Mus musculus with 24 samples.

Results

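Interferon-stimulated genes are the genes that cells switch on when an interferon binds its receptor, and the interferon regulatory factors (IRFs) are transcription factors that act both before and after that step. They were picked here by gene symbol alone, as all symbols of the interferon receptor, IRF, Ifi, Ifit, Ifitm, Isg, Oas, guanylate-binding protein (Gbp) and immunity-related GTPase (Irgm, Igtp, Iigp) families together with Stat2 and a set of named antiviral genes. In all, 54 such genes were listed in at least 1 of 4 deposited tables and 41 were listed in all 4, of 14014 genes that all 4 tables share. The 41 are the genes counted below, and the other 13 are given by name with the tables that hold them.

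The mice were males, 3 to 4 months old, and their cortex was taken after transient middle cerebral artery occlusion, a filament model of ischemic stroke, with 1 h of blocked flow and 1 day of reperfusion. Every animal had this surgery, so no uninjured mouse is in the set. One line was wild type (WT) and the other was a knockout (KO) of ciRS-7, the circular RNA made from the Cdr1as locus, and the labels give the strain of both as C57BL/6N-Cdr1asem1Nikr. Each animal gave 1 library marked CL and 1 marked PI, marks that the labels do not spell out, which makes 24 libraries, with 6 in each of the groups PI WT, PI KO, CL KO and CL WT. Levels are log2 CPM, read counts of a gene scaled to a common library total, on a log2 scale, and each table of 2 groups was scaled on its own. The deposited values of a group had been drawn in so that the 2 lowest are equal and the 2 highest are equal. Their spread is therefore smaller than that between animals. Ranges and overlaps of groups are given for these deposited values, since the true lowest and highest library of a group cannot be recovered. The read depth found from the values was 5.25 to 10.5 M (megareads) per library, with a median of 6.93 M. Cdr1as itself was below 0.169 CPM in the recoverable values of PI KO and reached 3004 CPM in PI WT, and was below 0.149 CPM in CL KO against up to 3809 CPM in CL WT. The library CL KO 6 stood apart over all genes, among the 2 lowest or the 2 highest of its group for 44.7% and 44.8% of them, so KO results are also given without it.

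As background, type I interferons bind the receptor pair IFNAR1 and IFNAR2, and type II interferon binds IFNGR1 and IFNGR2. Type I signalling builds a complex around STAT2 and IRF9 that binds the interferon-stimulated response element (ISRE), while type II signalling acts through the gamma-activated site (GAS) and through IRF1. In brain, microglia, astrocytes and endothelial cells can all make interferon-stimulated genes, and ischemia is known to be followed by such a response.

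The promoters of the genes that rose most show the letters these factors bind, and are given first for that reason. Promoter windows from RefSeq on GRCm38.p6, with 250 bases before and 50 after each start, were found for 35 of the 41 genes. Both strands were searched for the ISRE core TTTCNNTTTC and for the GAS TTCNNNGAA. Below are the stretches before the start for Gbp2 (chr3:142620413-142620621, plus strand), Gbp3 (chr3:142559794-142560043, plus strand) and Ifit1 (chr19:34640724-34640888, plus strand), cut so that at most 20 bases of an annotated exon stand at either end, and the match of Ifitm3 (chr7:141010716-141010742, minus strand), which lies just after the start. Capitals mark the matches.
Gbp2: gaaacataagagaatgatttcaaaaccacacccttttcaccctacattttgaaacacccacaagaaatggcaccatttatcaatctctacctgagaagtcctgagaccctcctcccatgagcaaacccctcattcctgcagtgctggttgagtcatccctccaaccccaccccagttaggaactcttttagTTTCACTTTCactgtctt
Gbp3: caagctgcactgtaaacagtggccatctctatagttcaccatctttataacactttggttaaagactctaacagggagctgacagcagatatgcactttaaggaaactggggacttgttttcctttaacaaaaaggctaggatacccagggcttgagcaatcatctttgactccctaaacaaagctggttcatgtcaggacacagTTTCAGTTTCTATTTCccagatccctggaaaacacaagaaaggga
Ifit1: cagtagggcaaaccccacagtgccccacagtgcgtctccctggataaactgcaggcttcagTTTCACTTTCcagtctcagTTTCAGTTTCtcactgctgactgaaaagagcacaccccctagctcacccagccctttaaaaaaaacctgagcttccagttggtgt
Ifitm3: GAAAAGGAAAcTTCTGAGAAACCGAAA

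Gbp2 held 1 ISRE match, with its first base at -59 from the RefSeq start. In GENCODE, Gbp2 starts further upstream, at chr3:142620602, so by that annotation the match lies just after the start. Gbp3 held 2 that overlap by 4 bases, in 1 of its 2 windows, and Ifit1 held 2 in tandem. Ifitm3 held 2 ISRE matches on the opposite strand, and the second shares bases with 1 GAS match. Of the 35 genes with a window, 18 (51.4%) held an ISRE match, against 3.52% of the 10459 genes of the PI WT and CL WT table that have a window. The GAS was found in 11 of the 35 (31.4%), against 8.16%. Among the genes with a window, ISRE matches were present in 15 of the 20 that rose in either genotype. They were present in 3 of the 15 with a window that were called in neither. A match is a description of letters and was not tied to binding in these samples, and the genes with and without one were not tested against each other.

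Some neighbours share these letters. The core and 10 bases on each side were the same in Ifit3 and its near copy Ifit3b at both of their sites, and nearly the same in the neighbouring GTPase genes Igtp and Irgm2. The set below shows 1 site of each of these genes, and 1 site of Irgm1, which does not repeat them. It also holds 1 site of Ifit1bl2, which is the site of Ifit1 read from the other strand because the 2 genes start back to back. Capitals mark 1 match per line, and that of Irgm1 overlaps a further match.
Ifit3: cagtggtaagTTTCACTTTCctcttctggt
Ifit3b: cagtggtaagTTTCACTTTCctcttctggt
Igtp: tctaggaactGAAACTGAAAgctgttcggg
Irgm2: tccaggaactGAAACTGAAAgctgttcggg
Irgm1: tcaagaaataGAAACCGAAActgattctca
Ifit1: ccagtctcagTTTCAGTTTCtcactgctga
Ifit1bl2: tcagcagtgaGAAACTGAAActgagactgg

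In WT animals, 21 of the 41 genes rose in PI over CL cortex and none fell, while 10.6% of all genes in that table were called (5.2% higher and 5.4% lower). A gene was called when its adjusted p was under 0.05 in an unpaired, moderated trimmed-mean test run with limma over all genes, with Benjamini-Hochberg adjustment. In KO animals 22 of the 41 rose and none fell, against 10% of all genes called (5.11% higher and 4.94% lower). Without CL KO 6 the count in KO was again 22. In that run Ifi27 and Irgm2 lost their calls and Dtx3l and Xaf1 gained one. The difference was positive for 40 of the 41 genes in each genotype, where 52.3% of all genes in WT and 49.9% in KO had a positive difference. The median of the 41 was 0.55 in WT and 0.77 in KO on the log2 scale, beside 0.01 for all genes in WT and a value that rounds to 0 in KO. All deposited PI values lay above all CL values for 33 of the 41 in WT (16.5% of all genes) and for 32 in KO (17.1%).

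**Figure D1:**
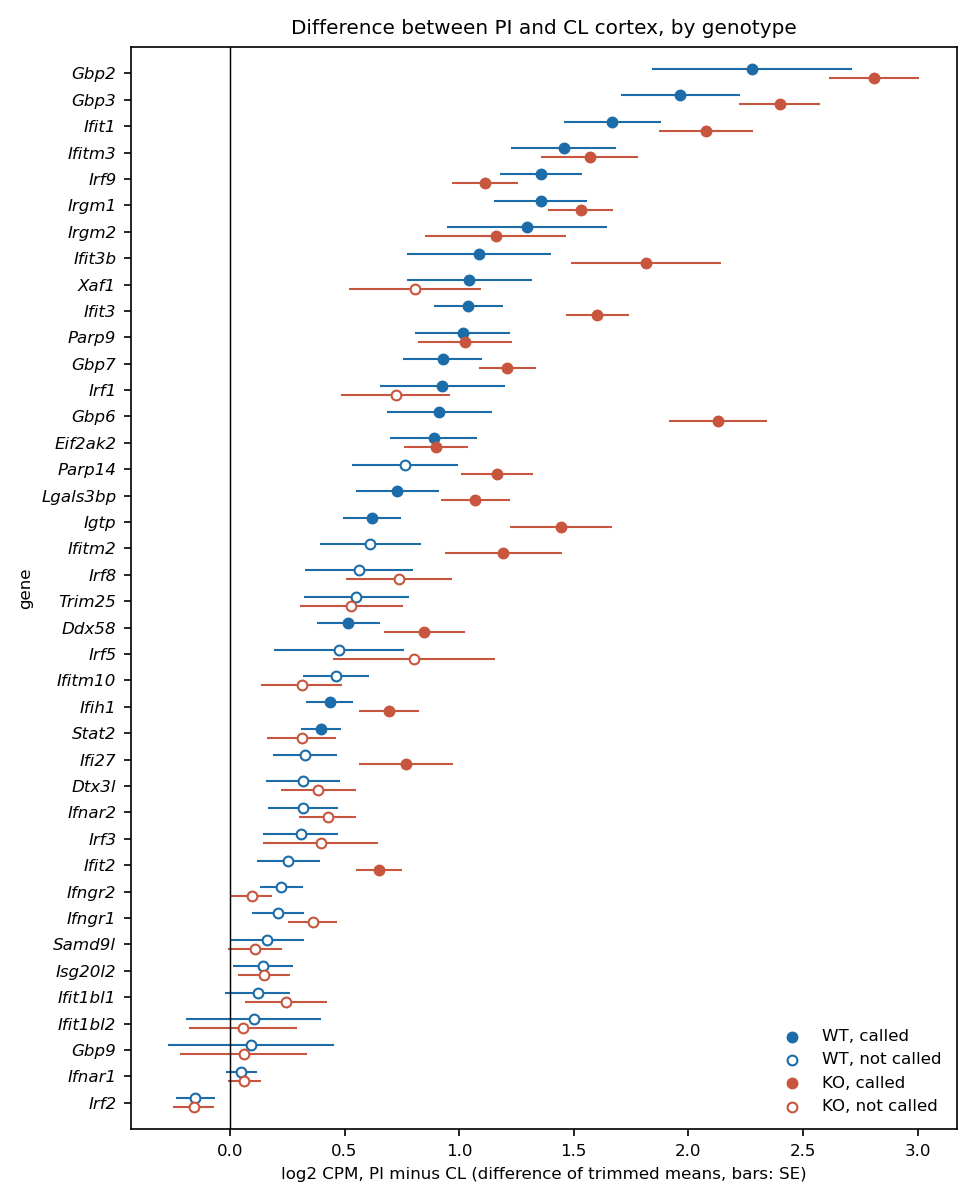
Difference in log2 CPM between PI and CL cortex for 40 of the 41 genes, in WT (blue) and KO (red), with filled points for genes called. Bars are 1 moderated SE of the unpaired difference of trimmed means, with 6 animals per genotype. All points but those of Irf2 lie to the right of 0, and the GTPases Gbp2 and Gbp3 lead in both genotypes.

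Of the 41 genes, 18 were called in both genotypes, 3 in WT alone (Xaf1, Irf1 and Stat2), 4 in KO alone (Ifitm2, Parp14, Ifi27 and Ifit2) and 16 in neither. The sign of the difference was the same in WT and KO for all 41. A gene called in 1 genotype alone is not thereby shown to differ between them, and the test of that difference is given with the genotype results. Across the 41 genes the WT and KO differences had a Pearson r of 0.90 and a Spearman rho of 0.91. This is a description over genes, which are not independent points.

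The 4 receptor genes had the smallest median difference of the role groups, 0.22 in WT and 0.23 in KO. Ifnar1, the chain that all type I interferons engage, had a lowest, median and highest value of 5.33, 5.38 and 5.43 in CL WT and of 5.38, 5.42 and 5.49 in PI WT. In KO the Ifnar1 values were 5.34, 5.37 and 5.43 in CL and 5.39, 5.43 and 5.51 in PI. The groups overlapped in both genotypes, with a PI minus CL difference of 0.05 (95% interval -0.10 to 0.20) in WT and 0.06 (-0.09 to 0.22) in KO, so a rise of the size seen for the induced genes below lies outside both intervals.

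Ifnar2, the high-affinity chain of the same receptor, ran from 3.01 to 3.47 around a median of 3.22 in CL WT and from 3.47 to 3.60 around 3.57 in PI WT. In KO it ran from 3.36 to 3.42 around 3.38 in CL and from 3.68 to 3.99 around 3.76 in PI, with no overlap. The difference for Ifnar2 was 0.32 (SE 0.15) in WT and 0.43 (SE 0.13) in KO, with limma-moderated adjusted p of 0.233 and 0.05, and the KO value just missed the threshold. Ifngr1, which binds interferon gamma, moved from a median of 3.56 to 3.73 in WT and from 3.37 to 3.72 in KO, where the adjusted p was 0.0524. Ifngr2, its signalling partner, moved from 4.76 to 5.01 in WT and from 4.74 to 4.84 in KO and was not called. None of the 4 receptor genes was called in either genotype.

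Among the transcription factors, Irf9 and Stat2 of the type I complex did not move by the same amount. Irf9, its DNA-binding part, had values of 1.87, 2.04 and 2.20 (lowest, median and highest) in CL WT and of 3.16, 3.44 and 3.59 in PI WT. In KO, Irf9 stood at 2.37, 2.42 and 2.48 in CL and at 3.35, 3.53 and 3.71 in PI. All deposited PI values were above all deposited CL values. Irf9 rose by 1.36 (SE 0.18, limma adjusted p 0.000539) in WT, a 2.56-fold change, and by 1.11 (SE 0.14, adjusted p 0.000562) in KO.

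Stat2, its partner there, ran from 3.91 to 4.07 in CL WT and from 4.33 to 4.44 in PI WT, a rise of 0.40 (SE 0.09, limma adjusted p 0.0126). In KO Stat2 ran from 3.70 to 4.08 in CL and from 4.07 to 4.42 in PI, so that the groups overlapped, and the difference of 0.31 was not called (adjusted p 0.225).

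Irf1, an early target of interferon gamma, moved from 0.76, 1.21 and 1.45 in CL WT to 1.79, 2.13 and 2.28 in PI WT, and from 1.25, 1.43 and 1.52 in CL KO to 1.83, 2.10 and 2.44 in PI KO. PI lay above CL in both genotypes. The difference was 0.93 (SE 0.27) in WT and 0.72 (SE 0.24) in KO, and the limma adjusted p of 0.0476 and 0.0733 fell on the 2 sides of the threshold. Irf2, which competes with IRF1 for the same sites, was the 1 gene of the 41 with lower values in PI. It ran from 4.66 to 4.82 in CL WT and from 4.51 to 4.63 in PI WT, and from 4.77 to 4.90 in CL KO and from 4.58 to 4.77 in PI KO. The differences of -0.15 (SE 0.08) and -0.16 (SE 0.09) did not pass the test, with adjusted p of 0.312 and 0.307.

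The other 3 IRFs were positive and not called. Irf3, which drives interferon genes after viral RNA is sensed, had medians of 1.99 and 2.30 in CL and PI of WT and of 2.05 and 2.37 in KO. Irf5 had medians of 0.47 and 0.85 in WT and of 0.55 and 1.46 in KO. Irf8, a factor that microglia and other myeloid cells need, had medians of 1.39 and 1.93 in WT and of 1.18 and 1.98 in KO, with adjusted p of 0.163 and 0.0631. Irf7 and Irf4 are not listed in the tables.

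**Figure D2:**
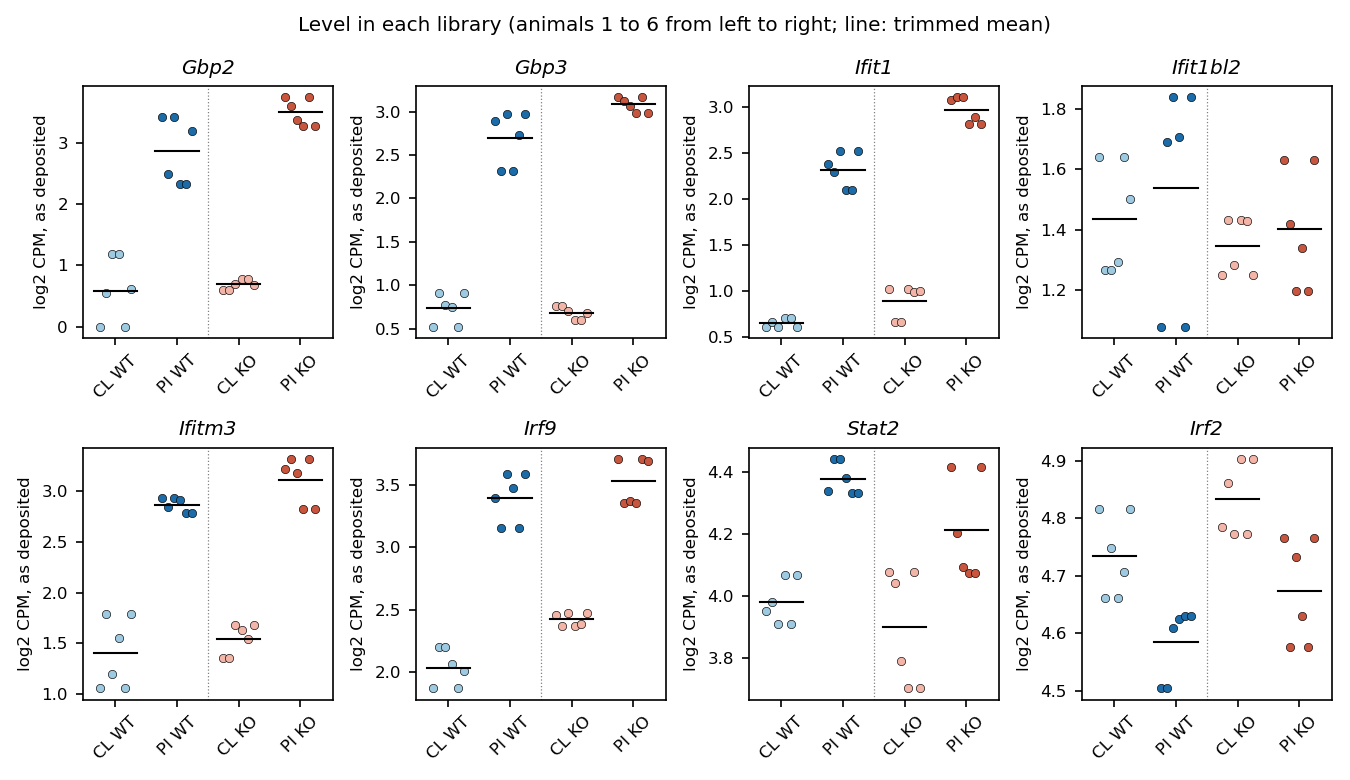
Deposited log2 CPM in each of the 24 libraries for 8 genes, with animals 1 to 6 from left to right in a group and a line at the trimmed mean. PI lies above CL in both genotypes for Gbp2, Gbp3, Ifit1, Ifitm3 and Irf9, below CL for Irf2, and across it for Ifit1bl2. Stat2 is apart in WT and overlaps in KO.

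The guanylate-binding proteins and immunity-related GTPases, which are loaded onto the membranes of vacuoles around intracellular microbes, held the largest changes. Gbp2 had values of 0.00, 0.58 and 1.18 in CL WT and of 2.33, 2.84 and 3.42 in PI WT. In KO, Gbp2 had 0.60, 0.69 and 0.78 in CL and 3.27, 3.49 and 3.74 in PI. The lowest deposited PI value was above the highest deposited CL value in both genotypes. Gbp2 rose 4.84-fold in WT (log2 2.28, SE 0.44, limma adjusted p 0.00519) and 7.02-fold in KO (log2 2.81, SE 0.20, adjusted p 6.31e-06).

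Gbp3, its neighbour on the chromosome, went from 0.53, 0.76 and 0.91 to 2.31, 2.81 and 2.97 in WT, and from 0.60, 0.69 and 0.76 to 2.99, 3.10 and 3.16 in KO. It rose by 1.96 (SE 0.26, limma adjusted p 0.000521) and by 2.40 (SE 0.18, adjusted p 8.43e-06). Gbp7 started higher, at medians of 2.94 in CL WT and 2.96 in CL KO, and rose less, by 0.93 (SE 0.17) to a median of 3.94 and by 1.21 (SE 0.12) to 4.16. Its groups did not overlap in either genotype.

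Gbp6 had the widest gap between genotypes. It went from 1.68, 1.94 and 1.97 in CL WT to 2.43, 2.80 and 3.09 in PI WT, a rise of 0.91 (SE 0.23, limma adjusted p 0.0216). In KO, Gbp6 went from 1.00, 1.42 and 1.63 to 3.39, 3.46 and 3.59, a rise of 2.13 (SE 0.21, adjusted p 8.48e-05). Of its exon bases 29.0% are shared with Gm43302 on the same strand, which limits how its reads can be assigned. Gbp9 was at medians of 1.57 and 1.62 in CL and PI of WT and of 1.66 and 1.68 in KO, and its groups overlapped.

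Irgm1, a regulator of the GTPases that attack vacuoles, went from 3.00, 3.17 and 3.25 to 4.13, 4.55 and 4.80 in WT, and from 2.94, 3.27 and 3.32 to 4.65, 4.69 and 4.79 in KO. It rose by 1.35 (SE 0.20, limma adjusted p 0.00113) and 1.53 (SE 0.14, adjusted p 4.57e-05). Irgm2, of the same regulatory class, went from a median of 0.51 to 1.70 in WT and from 0.42 to 1.80 in KO, with rises of 1.30 (SE 0.35) and 1.16 (SE 0.31). Igtp, also named Irgm3, ran from 2.26 to 2.43 in CL WT and from 2.91 to 3.04 in PI WT, a rise of 0.62 (SE 0.13, limma adjusted p 0.00777). In KO Igtp ran from 1.56 to 2.20 in CL and from 3.14 to 3.45 in PI, a rise of 1.44 (SE 0.22, adjusted p 0.00171). Igtp and Irgm2 share 162 exon bases on the same strand.

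Of the GTPases listed in the table of PI WT and CL WT, 9 of 10 rose, and 8 of 9 rose in the table of PI KO and CL KO, beside 5.2% and 5.11% of all genes called higher. The counts lean toward a rise, since those lists include genes that not all tables hold and that only tables with a PI group list. One is Iigp1, an effector GTPase, which went from -0.75, -0.04 and 0.03 in CL WT to 1.53, 2.26 and 2.96 in PI WT, and from -1.52, -0.49 and -0.13 in CL KO to 2.61, 2.76 and 3.02 in PI KO. It rose by 2.50 (SE 0.47, limma adjusted p 0.00445) and by 3.51 (SE 0.45, adjusted p 0.000507), and is not listed in the CL KO and CL WT table. Gbp5, which promotes inflammasome assembly, was listed in the WT table at -2.27, -1.33 and -0.87 in CL and at 0.75, 1.08 and 1.30 in PI. It was called there (limma adjusted p 0.0102), but most of its CL values lie near or under 0.515 CPM, the level of 3 reads, so no fold is given.

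Ifit proteins bind foreign RNA and Ifitm proteins hinder the entry of viruses through membranes. Ifit1 had 0.61, 0.64 and 0.71 in CL WT and 2.10, 2.34 and 2.53 in PI WT, and 0.66, 1.00 and 1.02 in CL KO and 2.82, 2.99 and 3.11 in PI KO. All deposited PI values were above all deposited CL values. Ifit1 rose 3.18-fold in WT (log2 1.67, SE 0.21, limma adjusted p 0.000418) and 4.22-fold in KO (log2 2.08, SE 0.21, adjusted p 7.72e-05).

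Ifit3 went from 2.36, 2.52 and 2.60 to 3.33, 3.55 and 3.70 in WT and from 2.08, 2.17 and 2.32 to 3.70, 3.79 and 3.90 in KO, rising by 1.04 (SE 0.15, limma adjusted p 0.000938) and 1.60 (SE 0.14, adjusted p 2.55e-05). Ifit3b, a near-identical copy whose reads may be split with those of Ifit3, went from a median of 1.07 to 2.01 in WT and from 0.48 to 2.18 in KO, rising by 1.08 (SE 0.31) and 1.82 (SE 0.33). Ifit2 began higher, at medians of 4.31 in CL WT and 4.12 in CL KO, and reached 4.58 and 4.75. The difference for Ifit2 of 0.25 (SE 0.14) in WT was not called (adjusted p 0.295), and it rose by 0.65 (SE 0.10, limma adjusted p 0.00175) in KO.

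Ifit1bl1 and Ifit1bl2, relatives of Ifit1 in the same cluster, were not called. Ifit1bl2 lies back to back with Ifit1 on chromosome 19, and 1 of its 2 windows holds the same 2 ISRE matches on the other strand. Its values ran from 1.27 to 1.64 around 1.40 in CL WT and from 1.08 to 1.84 around 1.70 in PI WT, and from 1.25 to 1.43 around 1.36 in CL KO and from 1.20 to 1.63 around 1.38 in PI KO. The Ifit1bl2 groups overlapped in both genotypes, and its differences of 0.10 (95% interval -0.53 to 0.74) and 0.06 (-0.45 to 0.56) stand beside 1.67 (1.21 to 2.13) and 2.08 (1.63 to 2.52) for Ifit1, with no overlap of the intervals. The 2 genes' changes were not tested against each other.

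Ifitm3 went from 1.06, 1.38 and 1.79 to 2.79, 2.88 and 2.93 in WT and from 1.35, 1.59 and 1.68 to 2.82, 3.20 and 3.32 in KO. It rose by 1.46 (SE 0.23, limma adjusted p 0.00156) and 1.57 (SE 0.21, adjusted p 0.000718), with groups apart in both genotypes. Ifitm2, its close relative, had medians of 1.51 and 2.15 in WT, a difference of 0.61 that was not called (adjusted p 0.1), and of 1.28 and 2.51 in KO, where it rose by 1.19 (SE 0.26, limma adjusted p 0.0114). Of the Ifitm2 exon bases 40.9% are shared with another gene model. Ifitm1, missing from the CL KO and CL WT table, rose by 1.84 in WT (limma adjusted p 0.00196) and by 2.46 in KO (adjusted p 0.000302), from medians of -0.04 and -0.14 to 1.76 and 2.25. Ifitm10, which is not known as an antiviral protein, was not called. Of the Ifit and Ifitm genes listed, 5 of 11 rose in WT and 7 of 10 in KO, beside the same 5.2% and 5.11% of all genes. These counts include Ifitm1, called in both genotypes, and in WT Ifitm7, which was not called. Only tables with a PI group list these genes, so a rise in them was favoured beforehand.

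The sensors of double-stranded RNA rose moderately. Eif2ak2, the kinase PKR that halts translation, moved from a median of 3.06 to 3.84 in WT and from 2.95 to 3.82 in KO, rising by 0.89 (SE 0.19) and 0.90 (SE 0.14). Ddx58, which encodes RIG-I, moved from 2.61 to 3.11 and from 2.33 to 3.25, and rose by 0.52 (SE 0.14) and 0.85 (SE 0.18). Ifih1, which encodes MDA5, moved from 3.41 to 3.84 and from 3.37 to 4.04, and rose by 0.43 (SE 0.10) and 0.69 (SE 0.13). The groups did not overlap for any of these 3 genes in either genotype. Oasl2, a member of the oligoadenylate synthetase family, was called in KO (1.76, SE 0.29, limma adjusted p 0.0025) and not in WT, where its CL values ran from -2.01 to 0.39 (2.22, SE 0.71, adjusted p 0.0685).

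Parp9 and Dtx3l, which work as a complex of an ADP-ribosyl protein and a ubiquitin ligase, start head to head and share 458 exon bases on opposite strands. Parp9 rose by 1.01 (SE 0.21) in WT, from a median of 1.40 to 2.44, and by 1.02 (SE 0.20) in KO, from 1.62 to 2.70. Dtx3l moved from 2.69 to 3.04 in WT and from 2.40 to 2.84 in KO, and its differences of 0.32 (SE 0.16) and 0.39 (SE 0.16) were not called. Whether the authors' counting used strand is not given in the sources used here, and without strand the shared bases cannot be assigned to 1 of the pair. Parp14, a further ADP-ribosyl transferase, moved from 1.62 to 2.43 in WT (0.76, adjusted p 0.0542, not called) and rose from 1.79 to 2.93 in KO (1.17, limma adjusted p 0.000675).

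The remaining effectors follow. Xaf1, an inhibitor of a caspase inhibitor, rose in WT by 1.04, and its KO difference of 0.81 was not called. Lgals3bp, a secreted glycoprotein, rose by 0.73 and 1.07. Ifi27, a mitochondrial protein, differed by 0.33 in WT, not called, and rose by 0.77 in KO. Trim25, the ligase that activates RIG-I, differed by 0.55 and 0.53, Samd9l by 0.16 and 0.11 and Isg20l2, a nucleolar exonuclease related to Isg20, by 0.14 and 0.15, and none of these 3 was called. Rtp4, listed in 3 tables, rose by 1.59 (SE 0.29, limma adjusted p 0.00471) in KO, and its WT difference of 0.51 (SE 0.28) was not called. Trim21, an antibody receptor and ubiquitin ligase listed in the same 3 tables, differed by 0.82 and 1.20 and was not called. Isg15, Usp18 and Bst2 are not listed in the tables.

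The tables differed in which of these genes they held. All 54 were listed in the PI KO and PI WT table, 48 in the PI WT and CL WT table, 46 in the PI KO and CL KO table and 41 in the CL KO and CL WT table. Gbp4, Ifi203, Ifi204, Ifi207, Ifi30 and Rsad2 were listed for PI alone, at medians of 0.41 to 1.76 in PI KO and of 0.56 to 1.28 in PI WT. Of these, Ifi30, a lysosomal thiol reductase, and Rsad2, the antiviral enzyme viperin, had the smallest unadjusted p for KO against WT, with KO above by 0.71 (SE 0.27) and 0.60 (SE 0.26), and neither was called. Ifi203, Ifi204 and Ifi207 belong to the family of DNA-binding HIN-200 proteins, and 2 of the 3 had a positive difference. Ifitm7, held by the 2 tables with PI WT, differed by 0.95 (SE 0.43) between PI and CL of WT and was not called. A table's list was set before deposit by a filter that is not given in the sources used here, so a gene that is not listed cannot be read as absent.

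Between genotypes no gene of the 41 was called in either cortex sample. In PI cortex the limma-moderated test called 0 of the 41, against 0.0208% of all genes in that table (0.00692% higher and 0.0138% lower), and 5 had an unadjusted p under 0.05, all higher in KO (5.75% of all genes, 2.8% higher and 2.95% lower). The difference was positive, with KO above WT, for 33 of the 41, where 48.5% of all genes were positive, and the median was 0.15, while that of all genes rounds to 0. Deposited PI KO values lay above all PI WT values for 10 of the 41 (6.94% of all genes) and below them for 0 (7.19%). The 10 were Gbp3, Gbp6, Gbp7, Ifih1, Ifit1, Ifit2, Ifitm2, Ifnar2, Igtp and Parp14. With limma on the deposited values, whose spread is too small, 15 of the 41 were called (36.6%), 13 of them higher in KO, beside 16.5% of all genes. These values describe the set and were not tested as a set.

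Ifit1 and Gbp6 had the smallest p in PI cortex. In the table that holds both genotypes, Ifit1 had 2.12, 2.36 and 2.56 in PI WT and 2.85, 3.02 and 3.14 in PI KO, a difference of 0.65 (SE 0.18, 95% interval 0.26 to 1.04, unadjusted p 0.00319 and adjusted p 0.768 by limma). Gbp6 had 2.46, 2.82 and 3.12 in PI WT and 3.43, 3.49 and 3.62 in PI KO, a difference of 0.71 (SE 0.21, unadjusted p 0.00461, adjusted p 0.768 by limma). The deposited values of the 2 genotypes did not overlap for either gene, as for 6.94% of all genes with KO above and 7.19% with KO below. Neither difference passed the correction over all genes. Ifitm2 followed at 0.47 (SE 0.17). Rtp4, which is outside the 41, differed by 0.84 (SE 0.26, unadjusted p 0.00765, adjusted p 0.854 by limma), with 0.93 to 1.25 in PI WT and 1.59 to 2.24 in PI KO.

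**Figure D3:**
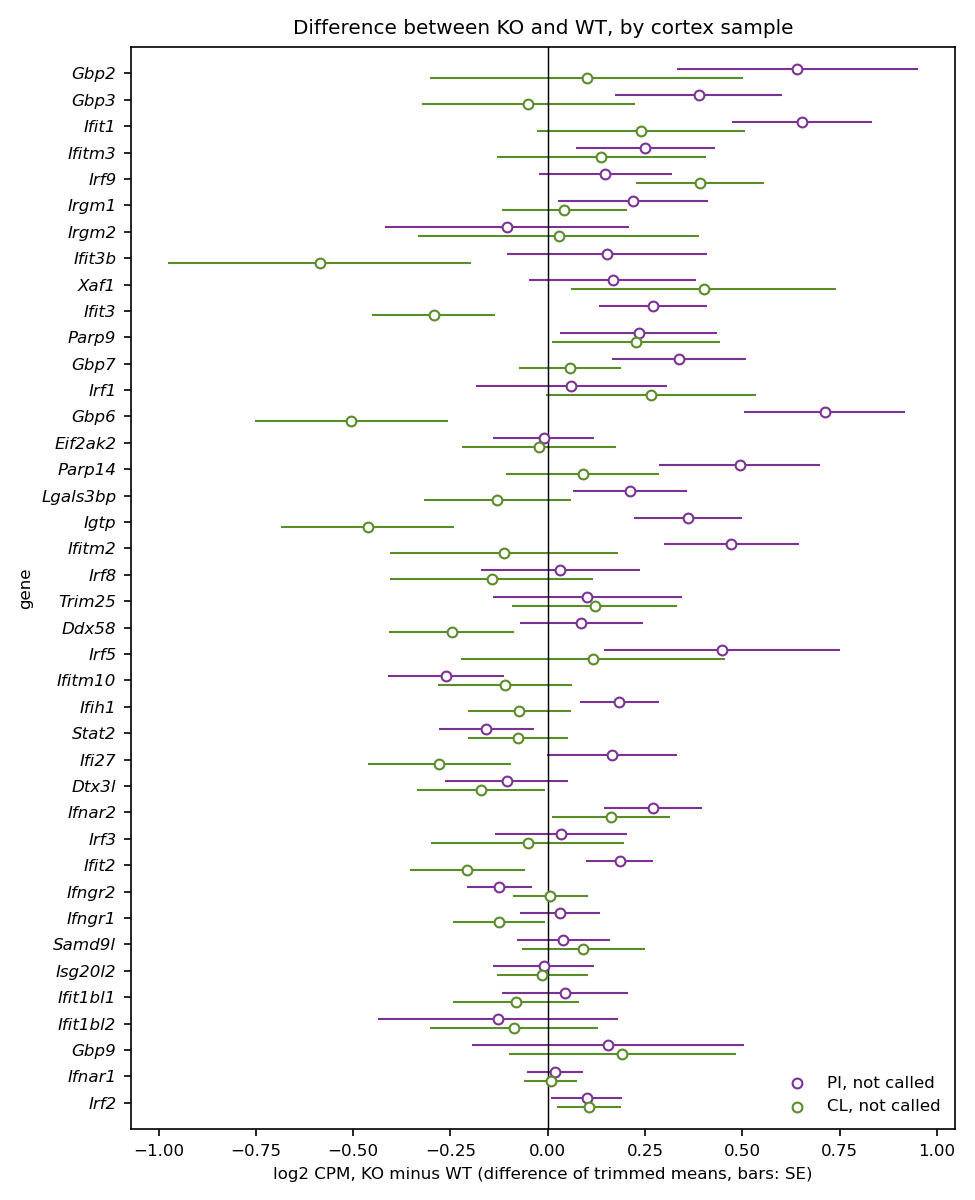
Difference in log2 CPM between KO and WT for 40 of the 41 genes in PI (purple) and CL (green) cortex, with open points since none was called. Bars are 1 moderated SE of the difference of trimmed means, with 6 animals per group. The PI points lie mostly to the right of 0, with Gbp6 at 0.71 and Ifit1 at 0.65, while the CL points spread to both sides.

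In CL cortex the limma-moderated test called 0 of the 41, against 0.0279% of all genes (0.014% higher and 0.014% lower), and 1 had an unadjusted p under 0.05 (5.73% of all genes). With limma on the deposited values 5 were called, 1 of them higher in KO, a smaller share (12.2%) than the 16.1% of all genes called in that way. Without CL KO 6 the trimmed-mean test again called 0. The difference was positive for 19 of the 41 (49.2% of all genes), with a median of -0.02, while that of all genes rounds to 0. Irf9 had the smallest p, with KO above WT by 0.39 (SE 0.16, unadjusted p 0.0332, adjusted p 0.825 by limma), with 1.84 to 2.17 in WT and 2.34 to 2.45 in KO. Igtp and Gbp6 came next, with lower values in KO by differences of -0.46 (SE 0.22) and -0.50 (SE 0.25). CL KO lay above CL WT in all deposited values for 1 gene (6.7% of all genes), which was Irf9, and below it for 3 (6.77%), Gbp6, Igtp and Ifit3.

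The difference between the 2 PI minus CL changes, KO less WT, was called for 0 of the 41, as for 0% of all 14211 genes in both tables, and limma on the deposited values called 8 (19.5%, beside 13.7% of all genes), while the trimmed-mean test without CL KO 6 called 0. It was positive for 29 of the 41 (49.9% of all genes). An unadjusted p under 0.05 was found for 4 genes, all with the larger change in KO (4.55% of all genes, 2% higher and 2.55% lower). They were Gbp6 at 1.21 (SE 0.33, unadjusted p 0.00146, adjusted p 0.992 by limma), Igtp at 0.83 (SE 0.27), Ifit3 at 0.56 (SE 0.20) and Ifit2 at 0.39 (SE 0.18). The genotype differences behind these 4, in CL and in PI cortex, were not called. The smallest adjusted p of the 41 was 0.992, so none of the 7 genes called in 1 genotype alone was called for this difference.

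Animals of a group differed in the whole set together. PI WT 3 was among the 2 highest libraries of its group for 30 of the 41 (32.3% of all genes) and PI WT 5 among the 2 lowest for 30 (32.8%). In PI KO, library 1 was among the 2 highest for 25 (37.7%) and library 4 among the 2 lowest for 32 (34.0%). The CL libraries of the 2 high animals were also often high, CL WT 3 for 19 of the 41 (34.8% of all genes) and CL KO 1 for 21 (34.0%). Of the 2 low animals, CL WT 5 was low for 15 and high for 16 (33.8% and 33.0% of all genes). CL KO 4 was more often low, for 18 (29.2%), than high, for 11 (30.9%). Neither was the library most often low in its group.

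**Figure D4:**
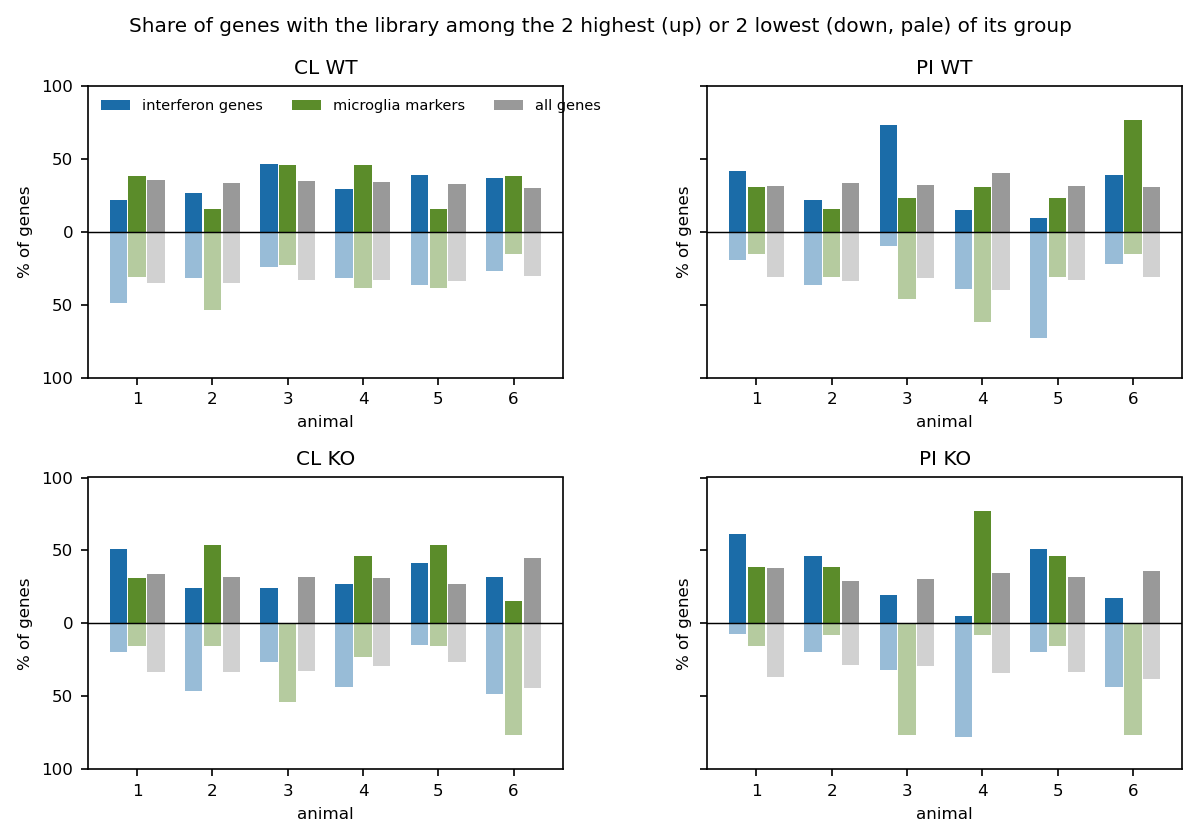
Share of the 41 genes (blue), of 13 microglia markers (green) and of all genes (grey) for which a library was among the 2 highest (upward) or 2 lowest (downward, pale) of its group. PI WT 3 stands at 73.2% high and PI KO 4 at 78.0% low for the 41 genes, while for microglia markers PI KO 4 stands at 76.9% high. In most PI libraries both sets lean the same way.

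In most PI libraries microglia markers were more often high, or more often low, together with the 41 genes. PI KO 4 and PI WT 3 went the other way. PI KO 4, the library most often low for the 41 genes, was among the 2 highest for 10 of 13 microglia markers (34.3% of all genes). PI WT 3, most often high, was among the 2 lowest for 6 of the 13 (31.4% of all genes). PI KO 6 was more often low than high in both sets (18 of 41 and 10 of 13, beside 38.1% of all genes). The same held for PI KO 3 (13 and 10, beside 29.3%) and PI WT 4 (16 and 8, beside 40.1%). In these 2 libraries the low shares of the 41 genes, 31.7% and 39.0%, were near those of all genes. PI WT 6 was more often high than low in both (16 of 41 and 10 of 13, beside 30.6% of all genes). So were PI KO 1 (25 and 5, beside 37.7%) and PI KO 5 (21 and 6, beside 32.0%). PI WT 1 (17 and 4, beside 31.6%) and PI KO 2 (19 and 5, beside 29.2%) were also more often high than low. PI WT 2 (15 and 4, beside 33.6%) and PI WT 5 (30 and 4, beside 32.8%) were more often low than high. For PI KO 1 the microglia share of 38.5% was near that of all genes. The share of 30.8% in PI WT 1, PI WT 2 and PI WT 5 was also near that of all genes. All 13 microglia markers were listed, and their summed level was 199 to 213 CPM in CL WT and 216 to 249 CPM in PI WT, and 211 to 235 CPM in CL KO and 238 to 292 CPM in PI KO. Of the 13, 5 rose and 3 fell in WT (5.2% and 5.4% of all genes), while 4 rose and 1 fell in KO (5.11% and 4.94%). Those that fell in WT were the homeostatic markers P2ry12 (-0.82), Gpr34 (-1.22) and Siglech (-0.96), and Fcrls rose most (1.79). In bulk tissue, fewer cells of a type and less RNA per cell cannot be told apart. The sum was 220 to 254 CPM in PI WT and 243 to 299 CPM in PI KO when both were in 1 table, ranges that overlap, and 11 of the 13 had a positive difference, with none called. In CL cortex the sum was 195 to 209 CPM in WT and 207 to 231 CPM in KO, with 12 of 13 positive and none called, while 19 of the 41 interferon genes were positive there. The part of these markers in the differences of the interferon genes was not tested.

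Markers of blood leukocytes were mostly not listed. Of 17 neutrophil, monocyte and macrophage markers the tables of PI and CL listed 2, Lyz2 and Csf3r, and neither was called. The table of PI KO and PI WT listed 4, with a summed level of 11.4 to 21.3 CPM in KO and 9.11 to 14.5 CPM in WT, and S100a8 had a difference of 1.16 (SE 0.46) that was not called. Ly6g, Mpo, Ccr2 and Ly6c2 are not listed in any of the tables. Of 13 T and NK cell markers 1 was listed, and Cd3e, Nkg7 and Gzmb were not. The 12 endothelial markers had a summed level of 119 to 164 CPM in CL WT and 118 to 163 CPM in PI WT, with 10 of 12 positive, a median difference of 0.35, and 1 called, which was lower. In KO 9 of the 12 were positive, with a median of 0.14 and 1 called lower. Of all genes, 5.4% in WT and 4.94% in KO were called lower. Of 8 choroid plexus and meningeal markers 5 were listed, and their sum went from 19.2 to 26.3 CPM in CL WT to 37.0 to 45.7 CPM in PI WT, and from 25.4 to 32.0 CPM in CL KO to 37.8 to 47.8 CPM in PI KO. Of these, Dcn, a matrix proteoglycan gene, rose by 1.32 (SE 0.18) in WT and 1.11 (SE 0.21) in KO, and Ttr, Folr1 and Clic6 were not listed. The 12 neuron markers were all listed, with a summed level of 7693 to 8293 CPM in CL WT and a lower 6431 to 7147 CPM in PI WT, without overlap. Of the 12, 5 fell in WT (5.4% of all genes), while 4 fell and 1 rose in KO (4.94% and 5.11%). The part of these shifts in the rise of the interferon genes was not tested.

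The genes around the pathway, which the symbol rule leaves out, were read from further lists. None of 17 interferon genes, the ligands, was listed in any table. Of 13 listed kinases and negative regulators, 3 rose in WT and 2 rose and 1 fell in KO, beside 10.6% and 10% of all genes called in either direction. Socs3, an inhibitor of cytokine receptors that the interleukin 6 family also induces, rose by 2.43 (SE 0.26) in WT and 2.35 (SE 0.29) in KO. The phosphatase gene Ptprc, which encodes the leukocyte marker CD45, rose by 1.00 (SE 0.14) and 1.06 (SE 0.13), and Ptpn6 rose by 1.16 (SE 0.30) in WT. The receptor kinases Jak1, Jak2 and Tyk2 were not called in either genotype.

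Upstream of interferon, 1 of 13 listed sensing genes rose in WT and 2 of 12 in KO, shares of few genes beside 5.2% and 5.11% of all genes called higher, from which nothing is read about the list. Myd88, the adaptor of most Toll-like receptors, rose by 1.16 (SE 0.22) in WT and 1.11 (SE 0.32) in KO, and Tlr4 by 0.66 (SE 0.18) in KO. Sting1, the adaptor of cytosolic DNA sensing, differed by 0.73 (SE 0.29) and 1.11 (SE 0.38) and was not called, and neither were Mavs and Tbk1.

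Of 35 further interferon-stimulated genes, 14 rose and 1 fell in WT and 11 rose and 1 fell in KO, beside 10.6% and 10% of all genes called in either direction. Their median difference was 0.46 in WT and 0.47 in KO. The largest rises in WT were in Slfn9 (2.25, SE 0.47), Slfn2 (1.43, SE 0.40), Trim30a (1.31, SE 0.16), Cd274 (1.23, SE 0.26), which encodes the checkpoint ligand PD-L1, and Trim30d (1.16, SE 0.30). In KO, Slfn9 rose by 2.73 (SE 0.54), Tap1, a peptide transporter of antigen presentation, by 1.51 (SE 0.32), Ddx60 by 1.45 (SE 0.42), Cd274 by 1.29 (SE 0.30) and Trim30a by 1.23 (SE 0.19). Ly6e, a surface protein that restricts coronaviruses, fell by 0.65 (SE 0.08) in WT and by 0.67 (SE 0.08) in KO, and was the 1 gene of this list called lower. Between genotypes 0 of 39 such genes were called in PI cortex, beside 0.0208% of all genes.

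All 41 genes matched protein-coding genes of GENCODE M21 on GRCm38. Of these, 19 share exon bases with another gene, over 20% of their exon bases in 3, among them Gbp6 and Ifitm2. Gbp2 spans chr3:142620602-142638008, Gbp3 chr3:142560026-142573209, Ifit1 chr19:34640871-34650009, Ifitm3 chr7:141009586-141010770 and Irf9 chr14:55603571-55610030.

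A few calls depended on single libraries. In WT the number of genes called ran from 15 to 22 when each library was left out in turn, with the low end without CL WT 2, and in KO from 20 to 24. The calls of Ddx58, Irf1, Irgm2, Ifit3b and Xaf1 in WT and of Irgm2 and Ifi27 in KO were each lost in at least 7 of the 12 such runs, while those of Gbp2, Gbp3, Ifit1, Ifit3, Ifitm3, Irf9 and Irgm1 held in all of them in both genotypes. Calls were also more numerous with limma on the deposited values, which takes the drawn-in spread as it is, at 35 genes in WT and 35 in KO, where 44.6% and 46.5% of all genes were called.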

How the data were processed

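Total RNA was depleted of ribosomal RNA with RiboCop and sequenced with the CORALL total RNA kit, per the labels' protocols. The authors deposited log2 CPM values in 4 tables, each of 2 groups and 12 libraries, per the file headers, with 0 unused value columns. The build is mm10, per the submitters' processing notes, and the aligner, counting, use of strand and molecular identifiers, gene filter and scaling are not given in the sources used here. Samples were grouped by the labels.

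In every gene and group of the deposited values the 2 lowest and the 2 highest of 6 were equal, at 0.75 of the second value plus 0.25 of the next. The 4 inner values were solved from this. Low values were whole reads (within 0.03) in 85.6% of cases after recovery and in 11.7% as deposited. Since 4 of 6 values are not reads, no count test was run. The mean of the 4 recovered values was tested with its Winsorized error (6 or 12 degrees of freedom) through limma 3.58.1 in R 4.3.3, with a trended prior variance, two-sided, with Benjamini-Hochberg adjustment over all genes of a table and a threshold of 0.05. On simulated data of 14489 genes for PI WT against CL WT, 59.8%, 87.1% and 98.4% of changes of 0.5, 1 and 2 were called, and 6.23% of calls were false. The step between low values gave the depth, and 3 reads correspond to at most 0.503 to 0.571 CPM per table.

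CL and PI libraries of 1 number come from the same animal per the labels, so the pairing rests on the design, while WT and KO numbers are different animals. The drawn-in values allow an animal block in limma alone. The trimmed-mean test takes CL and PI as unpaired groups, so its SEs, intervals and p do not use the pairing.

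The genes and the lists were chosen with earlier results of these data known. Named are all receptors, STATs and IRFs (1 gene of the 41 enters the counts and is not reported here by name), the called genes (the 12 with the largest change in full), the 3 smallest p between genotypes, genes that some tables leave out, and up to 5 called genes per pathway list. Promoters are those of the 4 called genes with the largest WT change that hold a match. Alternatives were limma on deposited values, the block, no prior trend, centring, filters on low values, a stricter threshold and leaving out each library.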

Additional observations from a re-analysis of the deposited data

How the results depend on the processing

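The counts of genes called depended most on how the drawn-in spread was treated. With limma on the deposited values they were 35 for PI WT against CL WT, 35 for PI KO against CL KO, 15 for PI KO against PI WT, 5 for CL KO against CL WT and 8 for the difference of the changes. With a block on the replicate number, limma on the deposited values gave 35, 34, 10, 4 and 7 in the same order. The block pairs the CL and PI libraries of an animal in the PI against CL comparisons and in the difference of the changes. Between genotypes it joins different animals that share only a number, so the 10 and 4 rest on no real pairing. Over all genes limma on the deposited values called 6459, 6666, 2388, 2311 and 1940. At an adjusted p under 0.01 the count was 12 in WT and 19 in KO. Leaving out each library gave 15 to 22 in WT, 20 to 24 in KO and 0 to 0 for the other 3 comparisons. Without the trend of the prior variance the counts were 17 and 22 (1015 and 739 of all genes against 1537 and 1440), with Gbp6, Ifit3b, Irf1 and Irgm2 lost in WT. Centring lost Irf1 in WT (adjusted p 0.0521) and shifted all genes by 0.03 in WT and 0.04 in KO. The sign turned for Gbp9, whose difference ran from -0.11 to 0.28 in WT and from -0.12 to 0.20 in KO over the left-out libraries, and for Ifit1bl2, from -0.012 to 0.32 and from -0.043 to 0.14, and neither was called. Depth limits genes near 3 reads, such as Gbp5 and Iigp1 in CL.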
